A study of Mus musculus with 9 samples.

Results

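The interferon response genes are genes that cells switch on after interferons reach their surface receptors, and 43 of them were followed here across 9 mouse expression arrays. They comprise 9 GTPases known for induction by interferon gamma, 2 transcription factors that respond to it (Irf1 and Irf8), and 32 genes of the type I response. A member was measured where an Illumina MouseWG-6 v2.0 probe carrying its symbol had a detection p-value under 0.05 on at least 3 of the 9 arrays, and the probe with the highest mean stood for the gene. That left 37 of the 43, among 10072 genes measured in all. They were 8 of 9 GTPases, both transcription factors and 27 of 32 type I genes. Of the others, Iigp1, Oas1a, Ifih1, Ifit1 and Xaf1 had probes that were detected on 0 to 2 arrays, and Ifi44 had no probe in the annotation.

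The arrays fall into 3 groups of 3, all from the C57BL/6 strain. The first group is Lmo2 cell lines numbered 3, 175 and 261 in the labels, each on 1 array, and the series' title speaks of murine T-cell leukaemias induced by Lmo2. The second is thymus labelled Lmo2 transgenic, and the third is wild-type thymus. The transgene is known from this mouse model to be driven by the CD2 promoter, which is active in T-lineage cells. The sources used here give no ages and do not say that thymus samples of a group came from separate animals, so the p-values measure the spread between these samples, which may be technical.

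Interferon gamma, made mainly by NK cells and activated T cells, acts through IFNGR1, IFNGR2, JAK1 and JAK2, and many of its targets carry gamma-activated sites (GAS). Type I interferons act through IFNAR1, IFNAR2, JAK1 and TYK2, and the resulting complex (ISGF3), which contains STAT2 and IRF9, binds interferon-stimulated response elements (ISRE), which IRF factors also bind. The thymus is known for a steady low interferon signal, to which developing thymocytes and other thymic cells respond.

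Both motifs are shown first because they are the sequence features by which these genes are known to be grouped. RefSeq promoter windows (GRCm38.p6, 250 bases before to 50 after the annotated start) were given for 33 of the 43 members. The letters searched were the ISRE core GAAANNGAA, which is TTCNNTTTC on the other strand, and the GAS TTCNNNGAA, which reads the same on both, with overlaps allowed. The ISRE core stood in the windows of 20 of the 33 members (60.6%), against 9.76% of 27025 genes with a window (8.56% of 32851 windows). The GAS letters stood in 13 of 33 (39.4%), against 9.55% of all genes (8.30% of windows). Among the GTPases, 7 of 8 had the ISRE core and 4 of 8 the GAS. Of the type I genes with a window, the ISRE core stood in 4 of 6 sensors and OAS genes, 7 of 12 antiviral effectors and 1 of 3 signalling factors. The GAS stood in 2 of 6, 5 of 12 and 0 of 3 of these. Isg15 had the ISRE core alone and Dtx3l neither motif. In these windows neither motif was confined to the GTPases or to the type I genes. Stretches are written 5′ to 3′ on the gene's strand, with every base of a match in capitals. The following were chosen as the GTPases with both motifs side by side, Gbp2 as a GTPase with an ISRE core and no GAS, the 2 gamma-responsive factors, and type I genes whose behaviour in the lines differed.
Igtp (chr11:58199501-58199540, plus strand): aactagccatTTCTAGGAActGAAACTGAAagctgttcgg
Irgm2 (chr11:58214892-58214931, plus strand): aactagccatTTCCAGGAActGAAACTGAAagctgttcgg
Tgtp1 (chr11:48992305-48992344, minus strand): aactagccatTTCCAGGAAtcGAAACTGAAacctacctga
Gbp2 (chr3:142620595-142620623, plus strand): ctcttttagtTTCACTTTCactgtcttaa
Irf1 (chr11:53769914-53769942, plus strand): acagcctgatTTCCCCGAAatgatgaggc
Irf8 (chr8:120736177-120736223, plus strand): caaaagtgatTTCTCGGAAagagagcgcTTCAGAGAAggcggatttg
Trim30a (chr7:104465210-104465238, minus strand): gttctttagtTTCTTTTTCtcagttcctg
Ifitm3 (chr7:141010707-141010752, minus strand): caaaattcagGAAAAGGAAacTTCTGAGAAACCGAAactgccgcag
Isg15 (chr4:156200866-156200906, minus strand): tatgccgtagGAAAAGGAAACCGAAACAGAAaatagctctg
Rsad2 (chr12:26456553-26456581, minus strand): tggtccaactTTCATTTTCagaaaacaga
Bst2 (chr8:71537578-71537618, minus strand): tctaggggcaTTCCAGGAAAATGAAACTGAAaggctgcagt

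In Igtp, Irgm2 and Tgtp1 the GAS letters were followed by an ISRE core whose first base lay 11 bases further on. The Igtp and Irgm2 stretches were identical at 39 of 40 bases, Tgtp1 and Irgm2 at 32 of 40, and Tgtp1 and Igtp at 31 of 40. Irf1 and Irf8 had GAS letters and no ISRE core in their windows. Isg15 carried 3 overlapping cores that began between 78 and 66 bases upstream of the start. Of the 20 members with a core, 16 were measured, and 8 of these fell in the lines against wild-type thymus, at the threshold given below. Of the 13 with a window and no core, 12 were measured, and 8 fell. Over all genes 12.4% fell. Both counts include members that no line detected, such as Trim30a with a core and Ifi47 without.

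**Figure D1:**
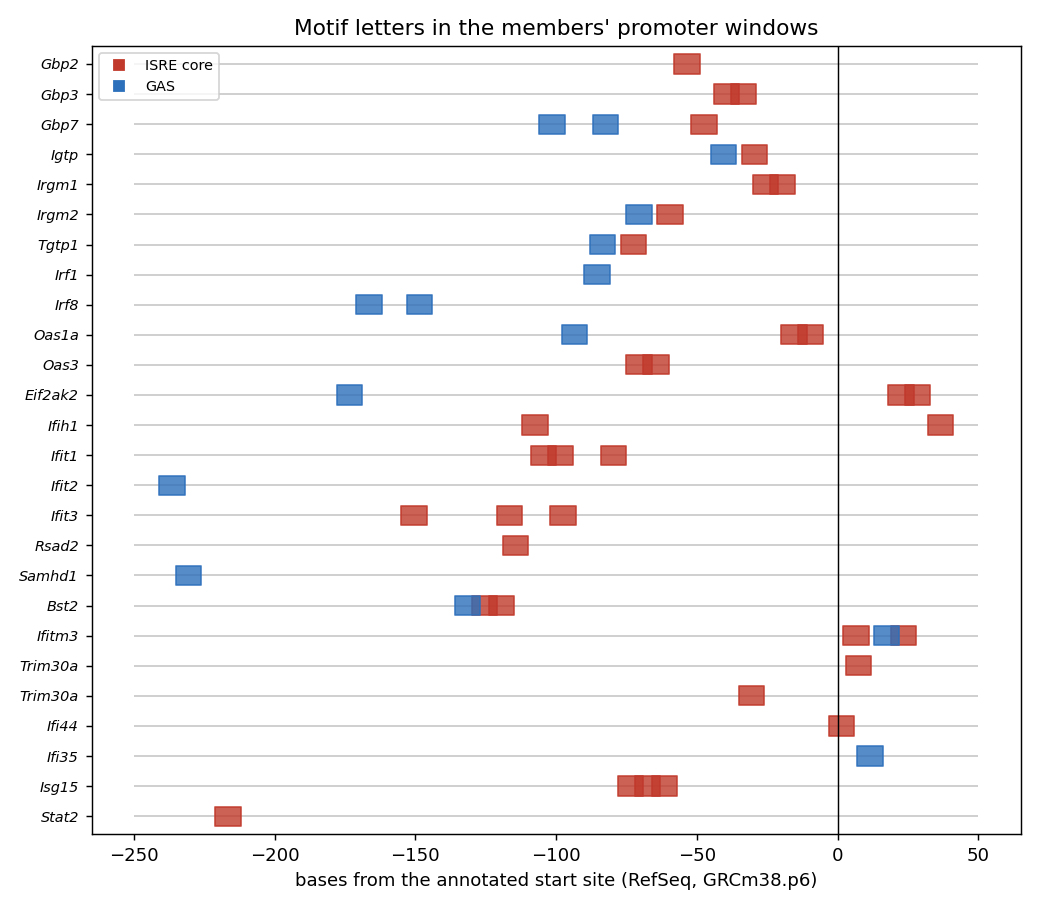
Matches to the ISRE core (red) and to the GAS letters (blue) in each promoter window that held any, by distance in bases from the annotated start site, with the window drawn as a grey line. Trim30a has 2 windows. The adjacent GAS and ISRE core of Igtp, Irgm2 and Tgtp1 lie within 100 bases upstream of the start.

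Between 35.0% and 43.0% of all probes were detected per array, with the lines at the low end, and median raw intensity ran from 118.5 to 161.2. Arrays correlated at r between 0.912 and 0.940 among lines, 0.944 and 0.967 among labelled transgenic samples and 0.978 and 0.992 among wild types. The Lmo2 probe averaged a log2 intensity of 4.53 ± 0.29 in the lines, where it was not detected, 6.20 ± 0.76 in the labelled transgenic samples and 8.06 ± 0.14 in wild type (SD, n = 3 each). In the labelled transgenic samples it fell by 1.86 on the log2 scale against wild type (limma adjusted p = 0.0325), which goes against the label, so that group is called labelled transgenic throughout. Whether transgene message binds this probe was not tested. Of the labelled transgenic arrays, numbers 1 and 2 showed Xist, which coats an inactive X, at 12.66 and 11.37, and neither array 3 nor any wild-type array detected it.

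Many of the measured interferon response genes were lower in the leukaemia lines than in thymus, among the GTPases as well as the type I genes. Of the calls given next, 10 of 22 against wild type and 11 of 18 against labelled transgenic thymus are of members that no line detected. Against wild-type thymus 22 of the 37 measured members fell and 0 rose (limma on log2 intensities, Benjamini-Hochberg adjusted p under 0.05 over all genes), while 12.4% of the 10072 genes fell and 12.1% rose. Their median log2 fold change was -1.63, against 0.08 over all genes. At an unadjusted p under 0.05, 26 members were lower and 0 higher. The share of all genes at an unadjusted p was not counted in any comparison. Against labelled transgenic thymus 18 fell and 0 rose, with 8.45% of all genes lower and 7.23% higher, and 25 were lower and 0 higher at an unadjusted p under 0.05. The median of the members there was -1.78, against 0.06 over all genes. Both comparisons use the same 3 line arrays, so they are not independent.

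No line detected 14 of the 37 (37.8%), against 998 of 10072 genes (9.91%). Those 14 passed the detection filter through thymus arrays alone, so their being lower in the lines is a description of how they were kept, and 10 of the 22 calls against wild type are among them. Their difference is a bound, written "at least", which sets the thymus mean against, on each line array, the higher of the gene's own signal and the lowest signal of any detected probe. The arrays read bulk RNA, in which fewer cells of a type and less RNA per cell cannot be told apart. Markers of several other cell types were also lower in the lines, where 12.4% of all genes fell and 12.1% rose against wild type. All 8 measured NK and cytotoxic markers, 7 of 8 MHC class II markers and 10 of 11 macrophage and granulocyte markers fell against wild type. No line detected 6 of the 8 NK markers, 5 of the 8 MHC class II markers or any of the 11 macrophage and granulocyte markers. Markers that no line detected passed the filter through thymus arrays alone, so their being lower in the lines describes how they were kept. The MHC class II list is of cell markers and not only of MHC class II genes. Its remaining marker rose, and Zbtb46 was the only 1 of its 8 that no wild-type array detected. Of 4 B cell markers 2 fell and 0 rose, and of 6 plasmacytoid dendritic cell markers 4 fell and 0 rose. Of 3 thymic epithelial markers 1 fell and 1 rose, and of 2 erythroid markers 0 fell and 1 rose. Of 2 fibroblast and endothelial markers 0 fell and 0 rose. No line detected 2 of the B cell, 1 of the plasmacytoid dendritic cell, 2 of the thymic epithelial and 1 of the erythroid markers. The summed linear intensity of the NK markers was 495 to 552 in the lines, 2870 to 5390 in labelled transgenic and 8150 to 9980 in wild-type samples. That of the MHC class II markers was 332 to 871, 2170 to 9210 and 16300 to 19200 in the same groups. Each of 8 T cell markers was detected in at least 1 line, and 3 of the 8 fell. The part of these cells in the members' differences was not tested.

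**Figure D2:**
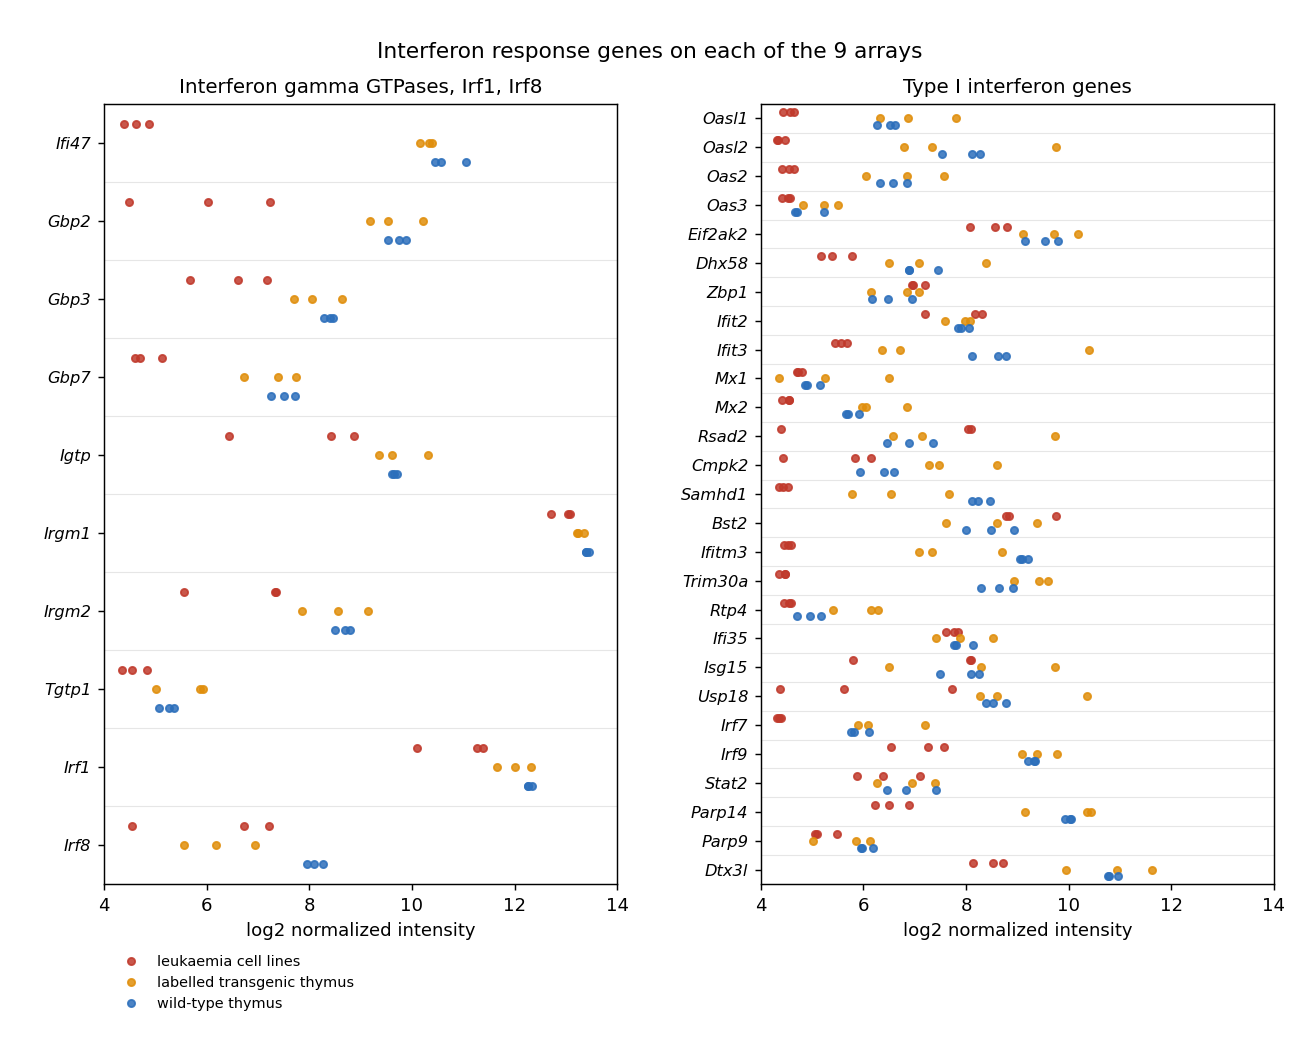
Log2 normalized intensity of each measured member on every array, with leukaemia lines (red) drawn above labelled transgenic thymus (orange) and wild-type thymus (blue) for each gene. The left panel holds the 8 GTPases with Irf1 and Irf8, the right panel the 27 type I genes; points near 4 to 5 are at background.

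Among the GTPases, which attack the vacuoles of intracellular parasites and bacteria, 5 of 8 fell against wild type and 4 of 8 against labelled transgenic thymus. Over all genes 12.4% and 8.45% fell in these comparisons. In each comparison 2 of the called GTPases were detected in no line. Ifi47, an immunity-related GTPase, read 4.88, 4.39 and 4.62 in lines 3, 175 and 261, against 10.40, 10.34 and 10.16 on the labelled transgenic and 10.45, 11.06 and 10.56 on the wild-type arrays. It was undetected in every line and far above background on every thymus array. The difference was at least 41.2-fold against wild type (adjusted p = 1.43e-05) and at least 31.5-fold against labelled transgenic thymus (adjusted p = 0.000107), the widest bound of any member in each comparison. Its window held neither motif.

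The 3 guanylate-binding members measured were called lower in both comparisons. Gbp2 read 6.03, 4.49 and 7.23 in lines 3, 175 and 261, 10.22, 9.54 and 9.19 in labelled transgenic and 9.53, 9.75 and 9.88 in wild-type thymus. The lines lay below every thymus array but spread over 2.74 log2 units, with a log2 fold change of -3.81 ± 0.63 (SE) against wild type (adjusted p = 0.00768). Gbp3 read 7.18, 5.68 and 6.62 in the lines, 8.64, 8.06 and 7.70 in labelled transgenic and 8.46, 8.29 and 8.4 in wild-type thymus. It stayed detected in all lines, and its log2 fold change was -1.89 ± 0.37 against wild type (adjusted p = 0.0141) and -1.64 ± 0.44 against labelled transgenic thymus (adjusted p = 0.0490). Gbp7 read 5.14, 4.71 and 4.61 in the lines, 7.39, 7.75 and 6.72 in labelled transgenic and 7.25, 7.50 and 7.72 in wild-type thymus. No line detected it, and it was at least 4.48-fold lower than in wild type (adjusted p = 0.000433). The call of Gbp2 against labelled transgenic thymus (-3.73 ± 0.68, adjusted p = 0.0172) ended without labelled transgenic array 1 or 2 (adjusted p 0.0700 and 0.0533). Gbp3 lost its call against wild type (adjusted p 0.0526 to 0.063) in each fit with 1 wild-type array fewer. Its call against labelled transgenic thymus ended without any 1 labelled transgenic array, line 175 or line 261 (0.0729 to 0.149).

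Irgm2 and Igtp, 2 further immunity-related GTPases, were both lowest in line 3. Irgm2 read 5.55, 7.33 and 7.35 in lines 3, 175 and 261, 9.14, 8.56 and 7.86 in labelled transgenic and 8.69, 8.51 and 8.80 in wild-type thymus, a log2 fold change of -1.92 ± 0.49 against wild type (adjusted p = 0.0320). Without 1 wild-type array that p was 0.0912 to 0.114. Igtp read 6.43, 8.42 and 8.87 in the same lines, 10.32, 9.62 and 9.36 in labelled transgenic and 9.66, 9.61 and 9.71 in wild-type thymus. Its groups did not overlap, but with line 3 so far below the other lines it was not called (log2 fold change -1.76 ± 0.60, adjusted p = 0.0733). Without line 3 or line 261 that p was 0.016 or 0.0389. Irgm1, a regulator of the other immunity-related GTPases, differed by -0.46 on its chosen probe (adjusted p = 0.114), which read 12.71 to 13.09 in the lines and 13.39 to 13.46 in wild type. A dimmer Irgm1 probe that also passed the filter differed by -2.83 (adjusted p over all probes = 0.000228), so the 2 probes of this gene disagree. Tgtp1 was undetected in the lines and near background in thymus, at 5.08 to 5.37 in wild type, and was not called (adjusted p = 0.0556, and 0.0313 without line 3). Whether its probe also reads the near-identical Tgtp2 was not tested.

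Irf1, the factor that carries the interferon gamma signal to secondary targets, read 11.39, 10.10 and 11.27 in lines 3, 175 and 261, 12.32, 12.01 and 11.66 in labelled transgenic and 12.26, 12.35 and 12.26 in wild-type thymus. It stayed well above background in the lines and fell by 1.37 on the log2 scale against wild type (SE 0.35, adjusted p = 0.0337). The other 4 probes of Irf1 gave -0.86, 0.20, -0.61 and -0.44. Its call ended without any 1 wild-type array (adjusted p 0.0891 to 0.110) and when its probes were averaged (0.239). Irf8, a factor of myeloid, dendritic and B cells, read 4.55, 6.73 and 7.22 in the lines, 6.18, 6.95 and 5.56 in labelled transgenic and 8.27, 8.10 and 7.96 in wild-type thymus. Both of the first groups lay below wild type and overlapped each other, with line 3 at background. The lines against wild type gave -1.94 ± 0.65 (adjusted p = 0.0712), and Irf8 was not called, though without line 3 or line 261 that p was 0.0145 or 0.0381.

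**Figure D3:**
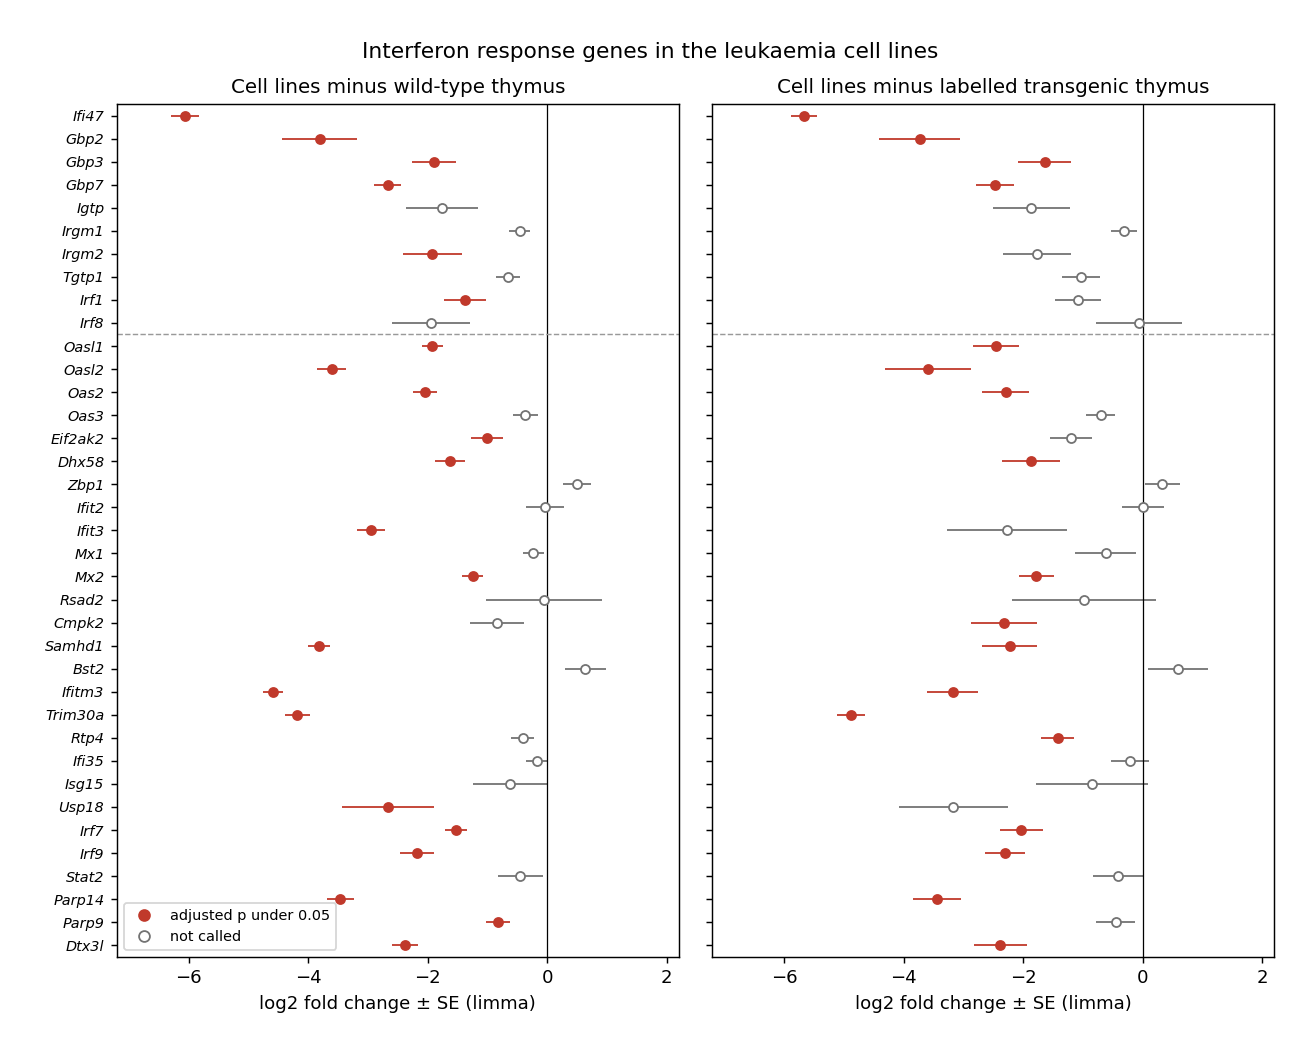
Log2 fold change with its standard error for each measured member, lines minus wild-type thymus (left panel) and lines minus labelled transgenic thymus (right panel). Red points had a limma adjusted p under 0.05 and open grey points did not; of the called members, 22 on the left and 18 on the right, every one lies below 0.

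Among the type I genes 16 of 27 fell against wild type and 14 of 27 against labelled transgenic thymus. Over all genes 12.4% and 8.45% fell in these comparisons. No line detected 8 of those 16 and 9 of those 14. Of the sensors of nucleic acid and the OAS family, which make the messenger that activates RNase L, 5 of 7 fell against wild type. Oasl2 read 4.47, 4.33 and 4.31 in lines 3, 175 and 261, 9.75, 6.79 and 7.34 in labelled transgenic and 7.53, 8.28 and 8.12 in wild-type thymus. It was undetected in the lines and at least 6.28-fold lower than in wild type (adjusted p = 0.000125). Oasl1, which in mouse restrains translation of Irf7, read 4.44, 4.65 and 4.57 in the lines, 7.80, 6.33 and 6.87 in labelled transgenic and 6.62, 6.26 and 6.52 in wild-type thymus. Oas2 read 4.65, 4.42 and 4.54 in the lines, 7.56, 6.84 and 6.05 in labelled transgenic and 6.58, 6.32 and 6.84 in wild-type thymus. Both were undetected in the lines, Oasl1 at least 2.21-fold (adjusted p = 0.000769) and Oas2 at least 2.39-fold lower than in wild type (adjusted p = 0.000867).

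Dhx58 (LGP2), a relative of RIG-I, read 5.18, 5.78 and 5.39 in the lines, 8.39, 7.08 and 6.49 in labelled transgenic and 7.46, 6.89 and 6.89 in wild-type thymus. It fell by 1.63 on the log2 scale against wild type (SE 0.25, adjusted p = 0.00602), and no line reached a thymus array. Eif2ak2 (PKR), the kinase that stops translation on sensing double-stranded RNA, read 8.07, 8.56 and 8.80 in the lines, 10.19, 9.11 and 9.72 in labelled transgenic and 9.14, 9.53 and 9.80 in wild-type thymus. Detected on every array, it fell by 1.01 against wild type (SE 0.27, adjusted p = 0.0378), a call lost without wild-type array 2 or 3 or without line 3 or 175 (adjusted p 0.0567 to 0.139). Zbp1, a sensor of Z-form nucleic acid, read 6.94 to 7.19 in the lines, 6.15 to 7.09 in labelled transgenic and 6.17 to 6.95 in wild-type thymus, and was not called (0.50 ± 0.24, adjusted p = 0.172). Oas3 was detected on 3 arrays, none of them a line.

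Of the antiviral effectors, 5 of 12 were called lower than wild type and 6 of 12 lower than labelled transgenic thymus. Over all genes 12.4% and 8.45% were called lower. No line detected 4 of those 5 and 5 of those 6. Ifitm3, which blocks virus entry at endosomes, read 4.46, 4.53 and 4.59 in lines 3, 175 and 261, 8.69, 7.33 and 7.09 in labelled transgenic and 9.05, 9.20 and 9.09 in wild-type thymus. It was undetected in the lines and at least 13.8-fold lower than in wild type (adjusted p = 1.43e-05) and at least 5.20-fold lower than in labelled transgenic thymus (adjusted p = 0.00701). Trim30a read 4.36, 4.48 and 4.48 in the lines, 9.42, 9.60 and 8.94 in labelled transgenic and 8.29, 8.65 and 8.91 in wild-type thymus. The lines were at background, at least 9.78-fold below wild type (adjusted p = 3.98e-05) and at least 15.9-fold below labelled transgenic thymus (adjusted p = 0.000227). Samhd1, which depletes the nucleotides that viruses need to copy DNA, read 4.44, 4.36 and 4.53 in the lines, 7.66, 6.54 and 5.78 in labelled transgenic and 8.11, 8.23 and 8.47 in wild-type thymus. It was undetected in the lines and at least 7.70-fold lower than in wild type (adjusted p = 3.06e-05).

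Ifit3, an RNA-binding partner of other IFIT proteins, read 5.56, 5.67 and 5.44 in the lines, 10.39, 6.71 and 6.37 in labelled transgenic and 8.78, 8.11 and 8.63 in wild-type thymus. It stayed just above background in every line and fell by 2.95 on the log2 scale against wild type (SE 0.23, adjusted p = 0.000278). Mx2 read 4.55, 4.55 and 4.41 in the lines, 6.84, 6.05 and 5.97 in labelled transgenic and 5.70, 5.91 and 5.65 in wild-type thymus. All lines were at background, at least 1.35-fold lower than in wild type (adjusted p = 0.00384). Rtp4 read 4.55, 4.46 and 4.58 in the lines, 6.28, 6.15 and 5.40 in labelled transgenic and 4.70, 4.95 and 5.17 in wild-type thymus. It was at least 1.54-fold lower than in labelled transgenic thymus (adjusted p = 0.0221, and 0.0553 to 0.0795 without labelled transgenic array 1 or 2, line 175 or line 261) and was not called against wild type (adjusted p = 0.156).

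Other effectors overlapped between lines and thymus. Bst2 (tetherin), which holds budding virus at the cell surface, read 8.78, 9.75 and 8.83 in lines 3, 175 and 261, 9.39, 7.6 and 8.60 in labelled transgenic and 8.49, 8.0 and 8.93 in wild-type thymus, with a log2 fold change of 0.64 ± 0.35 against wild type (adjusted p = 0.217). The groups overlapped. Ifit2 read 7.19 to 8.31 in the lines, 7.59 to 8.07 in labelled transgenic and 7.85 to 8.06 in wild-type thymus (-0.04 ± 0.32, adjusted p = 0.930). Ifi35 read 7.6 to 7.84 in the lines, 7.41 to 8.53 in labelled transgenic and 7.77 to 8.14 in wild-type thymus (-0.17 ± 0.19, adjusted p = 0.539). Neither these nor Bst2 were called, and all 3 were detected on every array. Mx1, which most inbred mouse strains carry in a defective form, was detected on 3 arrays, none of them a line.

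ISG15, a ubiquitin-like protein joined to other proteins, and USP18, which removes it and also restrains the type I receptor, each spread over more than 2 log2 units among the lines. Isg15 read 5.80, 8.08 and 8.09 in lines 3, 175 and 261, 9.74, 6.50 and 8.30 in labelled transgenic and 8.26, 7.49 and 8.10 in wild-type thymus. Line 3 lay below every thymus array and the other 2 lines among them (-0.62 ± 0.63, adjusted p = 0.488). Usp18 read 4.38, 5.62 and 7.73 in the same lines, 10.35, 8.61 and 8.28 in labelled transgenic and 8.39, 8.52 and 8.78 in wild-type thymus. All lines lay below thymus, and it fell by 2.66 against wild type (SE 0.77, adjusted p = 0.0473). That call ended without any 1 wild-type array, without line 3 and without line 175 (adjusted p 0.05 to 0.148), and with the authors' log2 table (0.0546).

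Of the factors that carry the type I signal, Irf9 and Irf7 fell and Stat2 was not called. Irf9, the DNA-binding part of ISGF3, read 7.56, 6.54 and 7.25 in the lines, 9.77, 9.38 and 9.09 in labelled transgenic and 9.21, 9.33 and 9.35 in wild-type thymus. Detected throughout, it fell by 2.18 against wild type (SE 0.28, adjusted p = 0.00293), and its other probe gave -2.04. Irf7, which amplifies type I interferon production, read 4.35, 4.32 and 4.39 in the lines, 7.19, 6.09 and 5.89 in labelled transgenic and 6.11, 5.82 and 5.75 in wild-type thymus. With no line above background, it was at least 1.48-fold lower than in wild type (adjusted p = 0.00193). Stat2 read 5.88 to 7.10 in the lines, 6.26 to 7.40 in labelled transgenic and 6.46 to 7.41 in wild-type thymus (adjusted p = 0.410).

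The ADP-ribosyltransferase Parp14 and the Parp9 and Dtx3l pair, whose proteins form a ubiquitin ligase complex, all fell against wild type. Parp14 read 6.50, 6.22 and 6.88 in the lines, 10.43, 10.36 and 9.14 in labelled transgenic and 9.92, 10.02 and 10.05 in wild-type thymus. It remained detected in every line and fell by 3.46 (SE 0.22, adjusted p = 0.000105). Dtx3l read 8.14, 8.71 and 8.53 in the lines, 11.63, 10.94 and 9.95 in labelled transgenic and 10.78, 10.77 and 10.96 in wild-type thymus, and it fell by 2.38 (SE 0.21, adjusted p = 0.000506). A dimmer Dtx3l probe went the other way, with 0.80 (adjusted p over all probes = 0.0473). Parp9 read 5.48, 5.05 and 5.10 in the lines, 6.12, 5.02 and 5.85 in labelled transgenic and 6.19, 5.96 and 5.98 in wild-type thymus. It was near background and fell by 0.83 (SE 0.20, adjusted p = 0.0258), a call lost without any 1 wild-type array, line 175 or line 261 (adjusted p 0.0553 to 0.0908).

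Of the 22 members called lower than wild type, 12 had another probe that passed the filter, and for 10 of the 12 every such probe was also below 0. The exceptions were Irf1 and Dtx3l. Cmpk2, a mitochondrial nucleotide kinase, was called against labelled transgenic and not against wild-type thymus. It read 5.83, 4.43 and 6.15 in lines 3, 175 and 261, 8.61, 7.47 and 7.28 in labelled transgenic and 5.93, 6.40 and 6.59 in wild-type thymus. Against labelled transgenic thymus it fell by 2.32 on the log2 scale (SE 0.55, adjusted p = 0.0352, and 0.0602 to 0.108 without line 175 or any 1 labelled transgenic array), while lines and wild type overlapped (adjusted p = 0.216). Leaving out single arrays brought the 18 calls against labelled transgenic thymus to between 11 and 17. There were 11 without labelled transgenic array 2, 11 without line 175 and 12 without labelled transgenic array 1.

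The lines differed from each other by more than 2 log2 units for 6 members, Gbp2, Igtp, Irf8, Rsad2, Isg15 and Usp18. Rsad2 (viperin), which makes a nucleotide that halts viral RNA synthesis, spread most, over 3.70 units. It read 8.09, 4.39 and 8.04 in lines 3, 175 and 261, 9.74, 6.57 and 7.15 in labelled transgenic and 6.45, 6.89 and 7.36 in wild-type thymus. Lines 3 and 261 lay above every wild-type array and line 175 at background, so the mean difference was near 0 (-0.06 ± 0.97, adjusted p = 0.967). Without line 175 it was 1.17 (adjusted p = 0.0476). No single line was lowest throughout, since line 3 was lowest for Igtp, Irf8, Isg15 and Usp18, and line 175 for Gbp2 and Rsad2. Line 261 was the lowest of the 3 for 5 of the 37 measured members (13.5%), against 33.6% of all genes, line 3 for 15 (40.5%, against 34.9%) and line 175 for 17 (45.9%, against 31.5%). Of the 37, 14 (37.8%) were at background in every line, where values have no order, against 9.91% of all genes. The shares are therefore not like for like. With 1 array per line these differences have no replicate and no test.

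**Figure D4:**
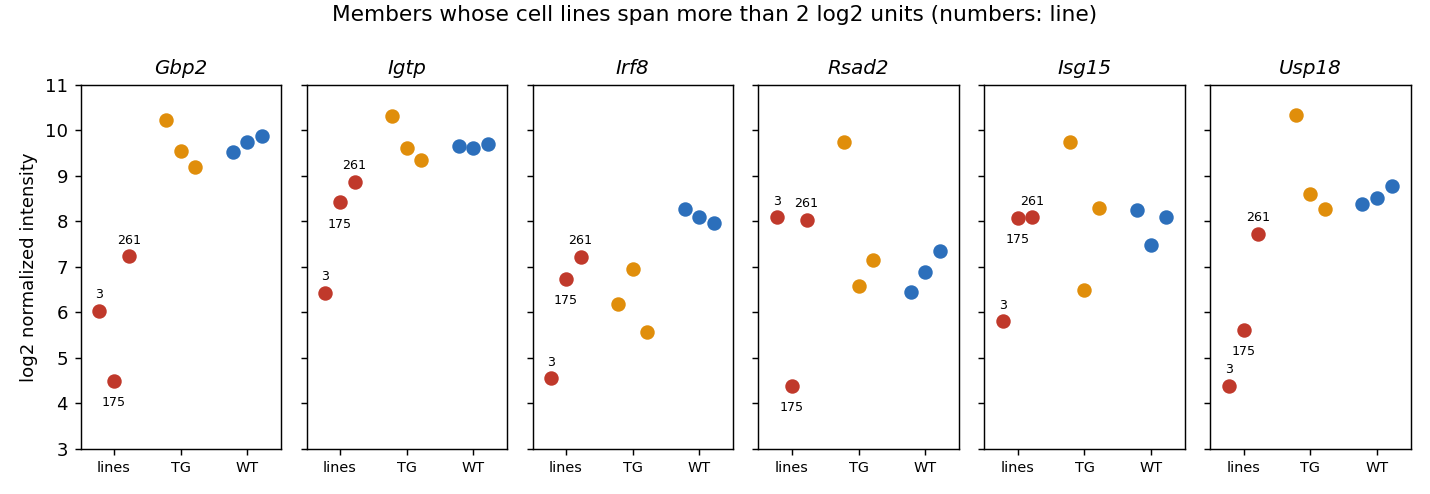
Log2 normalized intensity of the 6 members whose lines span more than 2 log2 units. Lines (red, numbered 3, 175 and 261) stand left of labelled transgenic (TG, orange) and wild-type thymus (WT, blue), and line 3 is lowest for Igtp, Irf8, Isg15 and Usp18.

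The thymus groups, which also differ in sex by the Xist and Eif2s3y readings above, were compared with each other next. Of the 37 measured members 1 fell and 0 rose, while 2.38% of all genes fell and 2.29% rose, and the members' median log2 fold change was 0.06, against 0.00 over all genes. At an unadjusted p under 0.05, 3 were lower (Irf8, Samhd1 and Ifitm3) and 3 higher (Cmpk2, Trim30a and Rtp4), with no share of all genes counted at that p. The called gene was Irf8, whose values are given above, with a log2 fold change of -1.88 ± 0.34 (adjusted p = 0.0240). Its call ended without any 1 wild-type array or labelled transgenic array 1 (adjusted p 0.0527 to 0.115). In the same comparison 5 of 8 NK and cytotoxic markers and 4 of 8 MHC class II markers fell. So did 2 of 6 plasmacytoid dendritic cell markers, a list that holds Irf8 itself and Bst2. Of the other lists, 2 of 11 macrophage and granulocyte markers and 1 of 3 thymic epithelial markers fell. None of the 4 B cell, 8 T cell, 2 fibroblast and endothelial or 2 erythroid markers fell, and no marker of any list rose. The part of these cells in the fall of Irf8 was not tested.

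The labelled transgenic arrays were unlike each other for these genes. Array 1 was the highest of the 3 for 30 of 37 members (81.1%), against 26.3% of all genes, and for 24 of 27 type I genes (88.9%) and 5 of 8 GTPases. It exceeded every wild-type array for 23 of 27 type I genes (85.2%), against 28.5% of all genes. Ifit3 showed the widest range, at 10.39 on array 1 against 6.71 and 6.37 on arrays 2 and 3, and with array 1 left out Ifit3 (-1.97, adjusted p = 0.0106), Samhd1 (-2.11, adjusted p = 0.00955) and Ifitm3 (-1.90, adjusted p = 0.00476) were called lower than wild type. Array 3 was the lowest of the 3 for 7 of 8 GTPases (87.5%), against 34.7% of all genes. Among 46 measured genes of a further list of interferon-induced genes, none of them members, array 1 was the highest for 29 (63.0%). The macrophage and granulocyte markers also summed highest on array 1, at 14500, against 4440 and 3910 on arrays 2 and 3 and 4720 to 7900 in wild type. So did the MHC class II (9210, against 5060 and 2170), plasmacytoid dendritic cell (6800, against 5840 and 2680), B cell (1340, against 1040 and 391) and erythroid markers (585, against 275 and 75.8), while the NK, T cell, thymic epithelial and fibroblast and endothelial markers summed highest on array 2. The part of these cells in the higher readings of array 1 was not tested. Nor was that of sex, in which arrays 1 and 2 differ from array 3 and wild type by the readings above.

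**Figure D5:**
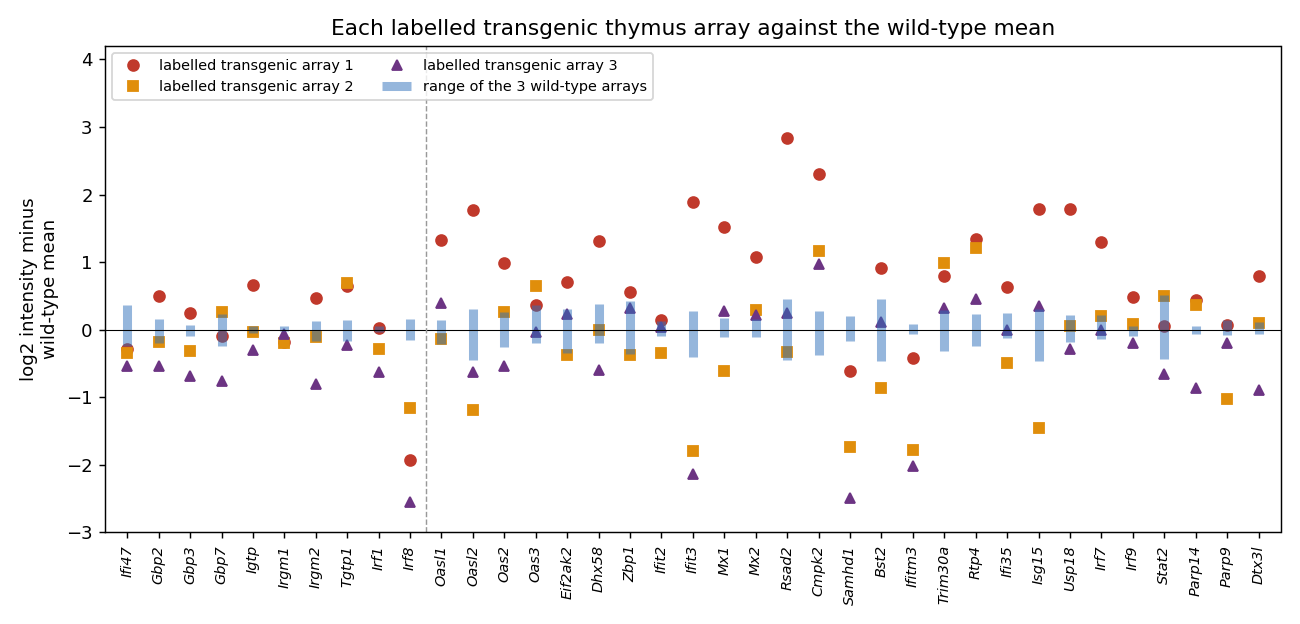
Log2 normalized intensity of each labelled transgenic array minus the wild-type mean, per measured member, with the range of the 3 wild-type arrays as a blue bar. GTPases, Irf1 and Irf8 stand left of the dashed line and type I genes right of it; array 1 (red circles) is the highest of the labelled transgenic arrays for 24 of the 27 type I genes.

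The pathway upstream of the members was measured in part. The counts of pathway genes below stand beside 12.4% of all genes lower and 12.1% higher than wild type. Against labelled transgenic thymus 8.45% of all genes fell and 7.23% rose. These shares are at the adjusted p, and none was counted at an unadjusted p. Of 9 measured receptor and JAK-STAT genes 5 fell against wild type and 0 rose (7 lower and 0 higher at an unadjusted p under 0.05), with a median log2 fold change of -0.95, against 0.08 over all genes. The kinase Jak1, shared by both receptors, read 5.99, 4.91 and 6.89 in lines 3, 175 and 261, 7.46, 8.89 and 7.89 in labelled transgenic and 8.20, 8.73 and 8.15 in wild-type thymus. All lines lay below all thymus arrays (-2.43 ± 0.49, adjusted p = 0.0148). Line 175 did not detect Jak1, so this estimate includes a reading at background. Of the 3 Jak1 probes that passed the filter, only the chosen 1 is given. Jak2, used by the gamma receptor, fell by 1.37 (adjusted p = 0.00725), Tyk2, used by the type I receptor, by 1.57 (adjusted p = 0.0305) and the receptor chain Ifngr2 by 0.95 (adjusted p = 0.0391). Il10rb, which pairs with the receptor for type III interferon, fell by 1.5 (adjusted p = 0.0229), an estimate that also includes a background reading in line 175. Ifngr1 (-0.70, adjusted p = 0.0504) and Ifnar2 (-0.39, adjusted p = 0.361) were not called. Ifnar1 was not among the measured genes. Against labelled transgenic thymus 2 of the 9 genes fell and 0 rose, Jak1 (adjusted p = 0.0497) and Jak2 (adjusted p = 0.0442).

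Among 6 measured interferon genes, Ifng, the ligand of the gamma branch, was undetected in the lines and at least 1.77-fold lower than in wild type (adjusted p = 0.000602). It read 4.36, 4.31 and 4.31 in lines 3, 175 and 261, 5.61, 5.04 and 5.14 in labelled transgenic and 6.16, 6.03 and 6.25 in wild-type thymus. Ifna6 and Ifna1, type I ligands, rose by 0.93 and 0.87 on the log2 scale against wild type (adjusted p = 0.0194 and 0.0254). Neither was called against labelled transgenic thymus (adjusted p = 0.101 and 0.0792). Ifna6 read 6.82 to 6.97 in the lines and 5.77 to 6.27 in wild type. Ifna1 was near background, at 5.83 to 5.92 in the lines and 4.79 to 5.34 in wild type, where 1 of 3 arrays detected it. Whether their probes also read other Ifna genes was not tested. Of 12 negative regulators of signalling 3 fell and 0 rose (6 and 0 at an unadjusted p under 0.05), with a median of -0.66, while 12.4% of all genes fell. They were Cish, at least 11-fold lower, Socs2, at least 4.25-fold lower, and Irf2, which fell by 1.87, and no line detected the first 2. Socs1, the main brake on JAK kinases in this pathway, read 5.93 to 6.53 in the lines, 4.62 to 5.65 in labelled transgenic and 5.07 to 5.80 in wild-type thymus (0.61, adjusted p = 0.152). Of 16 sensors and adaptors that lead to interferon production 6 fell and 2 rose, with a median of -0.99, while 12.4% of all genes fell and 12.1% rose. No line detected 3 of the 6 that fell. Those with the smallest p were Irf5 (at least 2.75-fold lower), Ddx58, which encodes RIG-I (at least 5.33-fold), Tlr7 (at least 2.16-fold) and Tbk1 (by 1.00 on the log2 scale). Irf3 was not called (-0.39, adjusted p = 0.136). Against labelled transgenic thymus, where 8.45% of all genes fell and 7.23% rose, 1 of the 16 sensors and adaptors fell and 0 rose. Of the 12 negative regulators 3 fell and 0 rose there, and of the 6 interferon genes 1 fell and 0 rose.

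Of the further list of 46 measured interferon-induced genes, 27 fell and 0 rose against wild type, while 12.4% of all genes fell and 12.1% rose, and the median log2 fold change was -1.40, against 0.08 over all genes. No line detected 16 of the 46, and 11 of the 27 calls are among these, which passed the filter through thymus arrays alone. At an unadjusted p under 0.05, 34 were lower and 0 higher, with no share of all genes counted at that p. Those with the smallest p were Ifitm1 (at least 16.5-fold lower, adjusted p = 1.11e-05) and Ifitm2 (at least 33.7-fold, adjusted p = 1.55e-05), relatives of Ifitm3, the giant GTPase Gvin1 (at least 16.3-fold, adjusted p = 1.43e-05) and Trim34a (at least 6.50-fold, adjusted p = 3.46e-05). All 4 were undetected in every line and so belong to those 11. Against labelled transgenic thymus 16 of the 46 fell and 0 rose, while 8.45% of all genes fell and 7.23% rose. No line detected 8 of the genes that fell there.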

How the data were processed

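RNA of 9 samples was read on Illumina MouseWG-6 v2.0 arrays from about 300 ng of total RNA each, per the labels. For 45281 probes the authors deposited an intensity with its detection p-value, per the file headers, and separately a normalized log2 table. The submitters' processing notes name BeadStudio and limma; no version or setting of either was found in the sources used. The intensities, not scaled between arrays, were passed through neqc (limma 3.58.1, R 4.3.3), which corrects background, adds an offset of 16, quantile-normalizes and takes log2. The result correlated with the authors' log2 table at r = 0.999. Probes with a detection p-value under 0.05 on at least 3 arrays were kept (19490). Genes were named from the platform annotation (34885 probes with 1 symbol, 18 with several, 10378 with none), and the kept probe with the highest mean stood for each of 10072 genes. Each comparison was fitted on its own 6 arrays with lmFit and eBayes, two-sided, adjusted by Benjamini-Hochberg over all genes. The fits were tested on simulated data. Arrays give no counting depth, and their number limits the precision.

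The members, classes, pathway lists and markers were chosen with earlier results of these data known. Values on every array are given for members called in any comparison or spanning more than 2 log2 units among lines. Of the pathway lists, set signalling genes and the 4 called genes with the smallest p in lines against wild type are named. Alternatives were the authors' log2 table, no background correction, an offset of 50, other detection filters, the mean of a gene's probes, all 9 arrays in 1 fit, array weights, a replicate block and leaving out each array. Replicate numbers did not pair the samples (correlations of same-numbered deviations -0.15 to 0.16). No slide or scan was named in the sources used, and batches were not tested.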

Additional observations from a re-analysis of the deposited data

How the results depend on the processing

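Of the 22 members lower in the lines than in wild type, 16 were called in each of the 15 alternatives, and Gbp3, Irgm2, Irf1, Eif2ak2, Usp18 and Parp9 were lost in at least 1. Against labelled transgenic thymus 9 of 18 were called in each. Leaving out 1 array gave 16 to 23 lower and 0 to 1 higher members against wild type, 11 to 17 lower against labelled transgenic thymus, and 0 to 3 lower and 0 to 1 higher in labelled transgenic against wild-type thymus. The single higher member against wild type was Rsad2, which ran from -0.68 without line 3 to 1.17, reversed and called, without line 175. In labelled transgenic against wild-type thymus there were 0 lower members with no detection filter and 0 with all 9 arrays in 1 fit, and 1 higher, Cmpk2, with array weights; without labelled transgenic array 3 the 1 higher member was Rtp4. With a replicate block the counts of lower members were 19, 14 and 1, although the numbers do not pair the samples. Over all genes that block gave 822 lower and 574 higher against wild type, 435 and 216 against labelled transgenic thymus and 148 and 145 between the thymus groups, where the fits without it gave 1250 and 1219, 851 and 728, and 240 and 231. With all 9 arrays in 1 fit the same comparisons gave 1268 and 1274, 1395 and 1399, and 170 and 130. Without single arrays they ran from 642 to 1489 lower and 331 to 1489 higher, from 327 to 791 and 117 to 668, and from 72 to 305 and 82 to 244. The cause of these shifts was not tested. Members that no line detected have bounds at most. Gbp2, Irf8, Dhx58, Rsad2, Cmpk2 and Usp18, detected in 2 lines, and Parp9, detected in 1 line, have point estimates that include readings at background.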

Other observations

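The line with the lowest reading was compared between members that neighbour each other on a chromosome. Of 8 neighbouring pairs in which both members were measured, 3 shared the lowest line and 5 did not. In 4 of those 5 at least 1 member was at background in every line, where values have no order. Over all genes each line was the lowest for 31.5% to 34.9%, so 2 genes can share a lowest line without being neighbours. The share among all neighbouring gene pairs was not counted, so 3 of 8 has no background beside it. Rsad2 and Cmpk2, whose start sites lie 12.8 kb apart on opposite strands of chromosome 12, were both lowest in line 175, at 4.39 and 4.43, where neither was detected, while lines 3 and 261 read 8.09 and 8.04 for Rsad2 and 5.83 and 6.15 for Cmpk2. Igtp and Irgm2, 15.4 kb apart on chromosome 11, were both lowest in line 3, at 6.43 and 5.55. Gbp3 and Gbp2, 60.6 kb apart on chromosome 3, were both lowest in line 175, at 5.68 and 4.49. Detected in all lines but lowest in different ones were Ifit2 and Ifit3, 32.8 kb apart on chromosome 19, with Ifit2 lowest in line 3 (7.19) and Ifit3 in line 261 (5.44). The 4 pairs with a member at background were Gbp7 and Gbp3 (29.7 kb), Oasl2 and Oasl1 (26.3 kb), Irgm1 and Tgtp1 (120.8 kb) and Tgtp1 and Ifi47 (84.3 kb). These pairs were noticed after the values were seen, each line is on 1 array, and they are given as values with no test.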
